A study of Homo sapiens with 4 samples.

Results

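Immediate early genes are switched on within minutes of a growth factor or stress signal, without new protein synthesis, and their RNA usually falls back quickly. The signal runs through RAS, RAF and MEK to the kinase ERK, which phosphorylates ternary complex factors such as ELK1; these bind next to the serum response factor SRF and raise FOS, EGR1 and similar genes. Another set of induced genes, the DUSP phosphatases and the Sprouty proteins, then switches ERK or its upstream signals off again, which makes them markers of the pathway's feedback. In prostate cancer cells, growth factors in serum drive this pathway alongside androgen signalling.

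The group consisted of 34 genes fixed by name: 8 AP-1 factors, 3 EGR factors, 6 SRF, ternary complex and ETS factors, 3 KLF factors, 5 other immediate early genes, 4 MAP kinase phosphatases, 3 Sprouty proteins and 2 secreted CCN proteins. A probe set, the unit of the Affymetrix array, was taken as a member if the platform annotation named 1 of these genes alone. This gave 60 probe sets for 32 genes, out of 11963 genes named this way in the whole table. EGR2 and BTG2 had no probe set named for them in that annotation, so their RNA was not analysed here. Their promoter windows were still searched for motifs, and the counts below include a CArG box in EGR2 and an EGR site in BTG2. CYR61 and CTGF carry their older symbols in the annotation, and are now CCN1 and CCN2.

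The values come from LNCaP, an established human prostate cancer cell line, cultured in RPMI-1640 with 10% FBS. One group received a MED1 expression vector and the other the empty vector, in both cases by transient transfection with Lipofectamine, and total RNA was collected 24 hours later. MED1 is a subunit of Mediator, the complex that connects DNA-bound factors with RNA polymerase II. There were 2 arrays per group and 4 in all. The labels do not say what share of the cells took up the vector, nor whether the duplicates were separate cultures. All signals are of RNA, so the activity of ERK itself was not measured.

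The array medians separated by group, at a signal of 78.4 and 77.0 for MED1, against 79.6 and 82.7 for the empty vector. Pearson's r over the tested probe sets was 0.986 to 0.992 between any 2 arrays. The 3' to 5' ratio of the actin control was 9.32 to 9.40 with MED1, against 8.14 to 9.45 with the empty vector. That of GAPDH was 1.16 and 1.24 with MED1, against 1.16 and 1.27 with the empty vector. The actin signal thus fell strongly towards the 5' end on all arrays. Whether this bears on probe sets of 1 gene that disagree was not tested. MED1 itself had 2 probe sets. One read 559 and 807 in the MED1 samples, against 292 and 315 in the empty vector samples, and passed (log2 fold change 1.11 ± 0.16 (SE), limma with Benjamini-Hochberg adjustment, adjusted p = 0.032). The other read 1172 and 1074 against 1097 and 1011 and did not pass (0.09 ± 0.10, adjusted p = 0.83). Of 9 luminal prostate markers 7 had a probe set, and all 7 lay above the filter. Of 21 markers of basal, fibroblast, endothelial, leukocyte and neuroendocrine cells 19 had a probe set, and 4 genes had one above the filter. The summed signal of the 4 neuroendocrine markers was 146 to 165 with MED1, against 248 to 321 with the empty vector, most of it from ENO2, a glycolytic enzyme, and its part in the results was not tested.

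RefSeq windows of GRCh38.p14, which run from 250 bases before to 50 bases after a start site, were found for 25 of the 34 genes, 33 windows in all. Each motif was searched on both strands. The CArG box, which SRF binds, was in 3 of the 33 windows (9.09%), against 1.29% of all 35116 windows. The cyclic AMP response element TGACGTCA, bound by CREB, ATF and JUN proteins, was in 2 windows (6.06%, against 1.85%). Its shorter form TGACG, which every full element also contains, was in 17 (51.5%, against 24.6%). The AP-1 site TGANTCA was in 1 window (3.03%, against 7.71%), and the EGR site GCGGGGGCG in 5 (15.2%, against 5.07%). The element TGATGNAA, through which ATF4 with C/EBP partners acts on stress genes, was in 2 windows, those of ATF3 and ELK1 (6.06%, against 3.62%). These matches describe letters and do not show binding.

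The windows of EGR1 and SRF are shown for their paired CArG boxes, in capitals, at 105 and 83 bases before the start of EGR1 (chr5:138465229-138465528, plus strand) and 30 and 10 bases before that of SRF (chr6:43171019-43171318, plus strand, 1 of 2 windows listed).
EGR1: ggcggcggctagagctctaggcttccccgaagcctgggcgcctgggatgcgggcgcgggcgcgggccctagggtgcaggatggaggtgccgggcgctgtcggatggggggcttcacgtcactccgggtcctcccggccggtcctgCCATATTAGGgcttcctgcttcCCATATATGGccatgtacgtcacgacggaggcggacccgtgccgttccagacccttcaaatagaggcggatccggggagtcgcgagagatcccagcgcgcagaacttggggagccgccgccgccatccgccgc
SRF: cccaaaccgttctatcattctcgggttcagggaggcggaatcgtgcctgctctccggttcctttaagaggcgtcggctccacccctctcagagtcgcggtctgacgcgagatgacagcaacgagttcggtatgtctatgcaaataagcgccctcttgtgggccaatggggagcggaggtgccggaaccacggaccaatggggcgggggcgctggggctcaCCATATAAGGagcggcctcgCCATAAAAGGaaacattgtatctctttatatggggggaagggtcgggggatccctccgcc
The windows of DUSP1 (chr5:172771146-172771445, minus strand) and JUND (chr19:18281573-18281872, minus strand) are shown for the full cyclic AMP response element, in capitals, at 125 and 200 bases before the start.
DUSP1: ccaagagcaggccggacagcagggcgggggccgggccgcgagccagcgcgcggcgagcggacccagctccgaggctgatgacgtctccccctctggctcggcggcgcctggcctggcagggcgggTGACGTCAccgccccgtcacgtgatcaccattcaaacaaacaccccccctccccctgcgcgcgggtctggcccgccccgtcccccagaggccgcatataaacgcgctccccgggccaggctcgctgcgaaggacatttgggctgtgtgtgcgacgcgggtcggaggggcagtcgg
JUND: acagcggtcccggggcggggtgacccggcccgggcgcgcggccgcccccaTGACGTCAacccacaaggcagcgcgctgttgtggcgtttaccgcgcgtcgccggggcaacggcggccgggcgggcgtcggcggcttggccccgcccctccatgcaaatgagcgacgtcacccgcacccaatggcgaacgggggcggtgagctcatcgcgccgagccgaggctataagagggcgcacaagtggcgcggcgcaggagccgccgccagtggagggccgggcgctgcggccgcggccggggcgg
ATF3 (chr1:212565157-212565456, plus strand, 1 of 2 windows listed) is shown for its TGATGNAA match, in capitals, at 191 bases before the start.
ATF3: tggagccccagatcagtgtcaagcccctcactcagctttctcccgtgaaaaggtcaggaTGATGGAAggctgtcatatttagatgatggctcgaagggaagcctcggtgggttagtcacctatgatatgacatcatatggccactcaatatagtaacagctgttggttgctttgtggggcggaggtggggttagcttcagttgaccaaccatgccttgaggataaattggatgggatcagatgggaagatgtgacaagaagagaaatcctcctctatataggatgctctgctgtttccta

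The comparison asked whether extra MED1 alters the RNA of these genes. None of their 38 tested probe sets passed, from 22 genes (limma, Benjamini-Hochberg adjustment over all tested probe sets, threshold 0.05; lowest adjusted p = 0.124), where 0.293% of all 13329 tested probe sets did. An unadjusted p under 0.05, met by 9.2% of all tested probe sets, was met by 6 of the 38. Of these, 2 had MED1 higher (5.26%, background 4.0%) and 4 had MED1 lower (10.5%, background 5.2%). A probe set was tested if its mean over the 4 arrays, on the log2(signal + 16) scale, reached the 40th percentile, a signal of 31. Fold changes are on that scale, MED1 minus empty vector, and understate the change of weak signals. The median log2 fold change of the 22 genes, each read by the tested probe set with the highest mean, was -0.10, with 13 negative and 9 positive, while the median of all 7957 tested genes was -0.02, with 54.5% negative. In bulk RNA, fewer transfected or responding cells and less RNA per cell cannot be told apart.

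The width of the 95% intervals depended on the scale. On the log2(signal + 16) scale, the interval lay within 1.5-fold in either direction for 15 of the 22 genes and within 2-fold for all 22, and among all 38 tested probe sets these counts were 18 and 34. With a pseudocount of 1 in place of 16, which compresses weak signals less, they were 12 and 18 of the 22 genes, and 15 and 24 of the 38 probe sets. The genes whose intervals then reached past 2-fold were FOSL2, EGR1, IER3 and DUSP4.

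**Figure D1:**
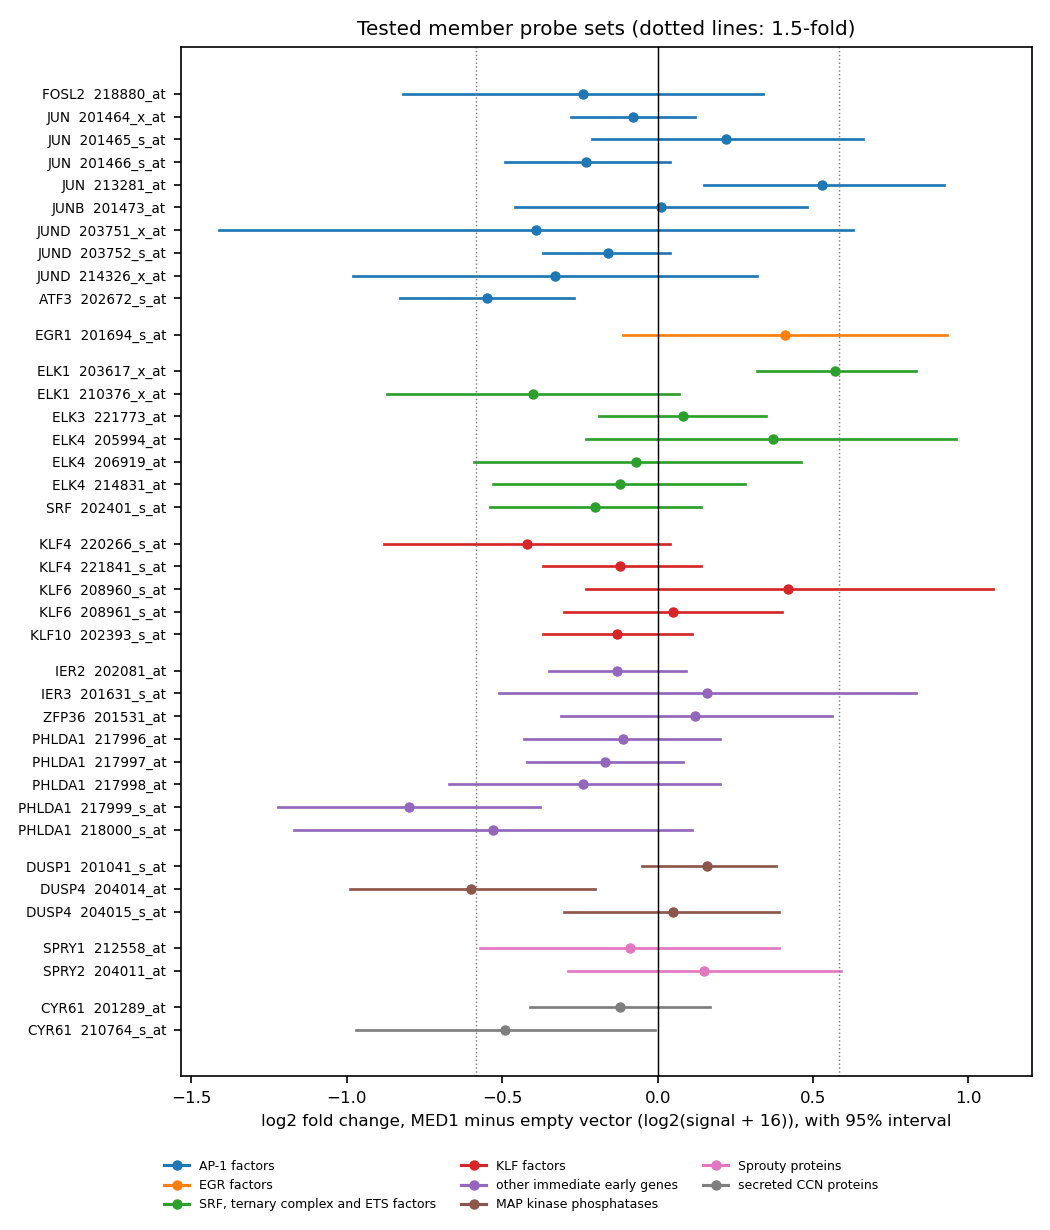
Log2 fold change of each of the 38 tested probe sets, MED1 minus empty vector (x axis, log2(signal + 16) scale), as a point with its 95% limma interval, coloured by the gene's role; dotted lines mark 1.5-fold. The intervals of ATF3, the ELK1 probe set 203617_x_at, the DUSP4 probe set 204014_at, the PHLDA1 probe set 217999_s_at, the JUN probe set 213281_at and the CYR61 probe set 210764_s_at leave out 0, and none of these passed after adjustment.

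Complete separation of the groups was more frequent on the lower side than the higher one. In 17 of the 38 tested probe sets (44.7%) both MED1 arrays read below both empty vector arrays, and in 6 (15.8%) both read above, against 22.6% and 17.2% of all tested probe sets. Probe sets of 1 gene share their transcript, and PHLDA1 alone supplied 4 of the 17. With 1 probe set per gene, 8 of 22 genes were lower (36.4%) and 4 higher (18.2%), against 23.5% and 17.7% of all tested genes. With each array centred on its median, 11 of the 38 were lower (28.9%) and 6 higher, against 15.7% and 24.8% of all tested probe sets. No test was made of these shares.

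Among the AP-1 factors, ATF3 had the lowest p. This stress-induced member of the ATF and CREB family read 555 and 703 in the MED1 samples, against 928 and 917 in the empty vector samples. The groups did not overlap, and the MED1 pair was further apart than the empty vector pair. Its log2 fold change was -0.55 ± 0.12 (95% interval -0.83 to -0.27), and it did not pass (adjusted p = 0.20). The log2 fold change was -0.72 without MED1 replicate 2 and -0.38 without MED1 replicate 1. Over the alternatives that kept all arrays, the adjusted p of ATF3 (limma) was 0.0211, with the replicate block, to 0.538, with no filter. The block called 1.79% of all tested probe sets, against 0.293% in the main fit. The window printed above is that of 1 of its 2 listed start sites.

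JUN, the AP-1 subunit that pairs with FOS proteins, had 4 tested probe sets, 2 of each sign. Probe set 201464_x_at read 1941 and 1968 in the MED1 samples against 2092 and 2037 in the empty vector samples (-0.08 ± 0.09), and 201466_s_at read 405 and 369 against 470.2 and 442 (-0.23 ± 0.12). Probe set 213281_at went the other way, at 146 and 169.5 in the MED1 samples against 107 and 101 in the empty vector samples (0.53 ± 0.17, adjusted p = 0.397). These 3 each separated the groups. Probe set 201465_s_at did not, at 178 and 262 against 168 and 199 (0.22 ± 0.19). With these disagreements, the table gives no single direction for JUN.

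JUND, a JUN protein present in unstimulated cells too, read 3830.1 and 3929 in the MED1 samples, against 4420.2 and 4276 in the empty vector samples by 203752_s_at (-0.16 ± 0.09). The groups did not overlap, and the interval, -0.37 to 0.04, stayed within 1.5-fold. Its 2 other tested probe sets, both with signals of 19.6 to 88.6, gave -0.39 ± 0.45 and -0.33 ± 0.29. JUNB, which often opposes JUN, read 84.3 and 88.0 in the MED1 samples, inside the 73.0 and 99.2 of the empty vector samples (0.01 ± 0.21). FOSL2, a FOS relative, had 1 tested probe set, at 34.2 and 27.5 in the MED1 samples against 37.1 and 41.4 in the empty vector samples (-0.24 ± 0.26). It lay close to the filter level and its interval, -0.82 to 0.34, was wide. Its 2 other probe sets lay below the filter. Of these, 205409_at read 5.3 and 7.63 in the MED1 samples against 2.71 and 2.89 in the empty vector samples, with MED1 higher and no overlap, and 218881_s_at read 2.79 and 6.62 against 3.84 and 4.75, with overlap. Of the AP-1 genes 0 passed.

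FOS, FOSB and FOSL1, the partners of JUN, had no tested probe set. FOS read 3.01 and 1.14 in the MED1 samples, against 1.90 and 3.68 in the empty vector samples. FOSB read 14.6 and 5.68 against 15.5 and 4.6, and FOSL1 19.9 and 21.6 against 12.8 and 17.3. The groups overlapped for FOS and FOSB but not for FOSL1. No detection calls were used, so signals this low have no known background to be set against, and no fold change is given.

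ELK1, a ternary complex factor that ERK phosphorylates, had 3 probe sets that disagreed. By 203617_x_at it read 834 and 758 in the MED1 samples, against 564 and 495 in the empty vector samples. By 210376_x_at it read 66.1 and 91.7 in the MED1 samples, against 113.5 and 103 in the empty vector samples. Both separated the groups, the first with MED1 higher and the other with MED1 lower. The log2 fold changes were 0.57 ± 0.11 (95% interval 0.32 to 0.83, adjusted p = 0.124) and -0.40 ± 0.21 (-0.87 to 0.07, adjusted p = 0.598), and neither passed.

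The third ELK1 probe set, 210850_s_at, lay below the filter, at 1.51 and 1.25 in the MED1 samples against 2.27 and 2.04 in the empty vector samples. Within each array, the log2 difference of 203617_x_at over 210376_x_at was 3.37 and 2.84 in the MED1 samples, against 2.16 and 2.11 in the empty vector samples. These differ by 0.97, and the groups did not overlap. An exact permutation test of 2 arrays against 2 cannot pass 0.05, so the difference stands as a description. In Affymetrix naming, the ending x_at marks a probe set with probes that match other transcripts too, and both tested ELK1 probe sets carry it. Without MED1 replicate 2, 203617_x_at gave 0.64, and with any 1 array left out it gave 0.48 to 0.67. Over the alternatives that kept all arrays, its adjusted p (limma) was 0.0108, with the replicate block, to 0.465, with no filter. The block called 1.79% of all tested probe sets, against 0.293% in the main fit.

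**Figure D2:**
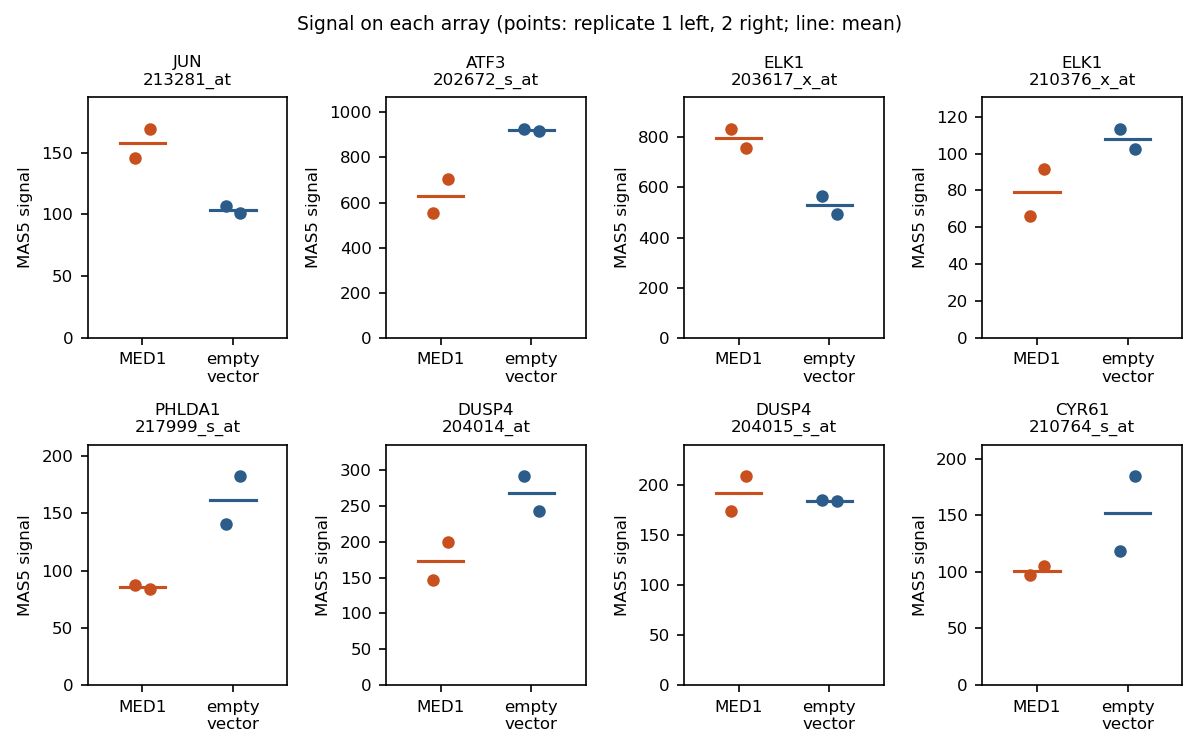
MAS5 signal (y axis, linear, from 0) on each array for 8 member probe sets, with the 2 MED1 arrays left of the 2 empty vector arrays and a line at each group's mean. Shown are the tested probe sets with an unadjusted p under 0.05 (limma), and every tested probe set of ELK1 and DUSP4. They were thus picked by their difference between the groups or by gene. The ELK1 panels run in opposite directions, and DUSP4 separates the groups by 204014_at and overlaps by 204015_s_at.

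The other ternary complex factors and SRF did not pass. ELK3, which represses as well as activates, read 458 and 411 in the MED1 samples against 428 and 394 in the empty vector samples (0.08 ± 0.12), with overlapping groups. ELK4 had 3 tested probe sets. Probe set 205994_at read 54.4 and 39.4 in the MED1 samples against 28.1 and 37.3 in the empty vector samples (0.37 ± 0.26), 206919_at read 62.7 and 99.9 against 88.5 and 80.1 (-0.07 ± 0.23), and 214831_at read 119 and 123 against 150.3 and 118 (-0.12 ± 0.18). The groups separated by the first alone. SRF, the factor that binds the CArG boxes shown above, read 166 and 194 in the MED1 samples against 216 and 202 in the empty vector samples (-0.20 ± 0.15), both MED1 arrays below. Its interval, -0.54 to 0.14, lay within 1.5-fold. A second SRF probe set, 202400_s_at, lay below the filter at 25.5 and 44.9 in the MED1 samples against 16.8 and 28.9 in the empty vector samples, and overlapped. So did the second ELK3 probe set, 206127_at, at 6.31 and 10.6 against 1.79 and 26.3. The ETS factors ETV4 and ETV5, which are themselves ERK targets, had 4 probe sets, all below the filter with signals of 2.11 to 24.5.

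EGR1, a zinc finger factor and classical serum-induced gene, had 1 tested probe set. It read 54.5 and 58.5 in the MED1 samples, against 38.5 and 38.4 in the empty vector samples. The groups separated with MED1 higher, but the value did not pass (0.41 ± 0.23, interval -0.11 to 0.93, adjusted p = 0.615). A second EGR1 probe set, below the filter, read 25.9 and 23.1 against 13.6 and 33.4 and overlapped. EGR3, a relative of EGR1, lay below the filter at 6.43 to 12.1.

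KLF10, a TGF-beta-inducible repressor, read 1173 and 1082 in the MED1 samples against 1323 and 1151 in the empty vector samples (-0.13 ± 0.11), with overlap. KLF4, a factor of epithelial differentiation, read 1053 and 1031 against 1253 and 1019 by 221841_s_at (-0.12 ± 0.11), also with overlap. A second KLF4 probe set, 220266_s_at, read 57.1 and 58.0 in the MED1 samples against 84.5 and 79.7 in the empty vector samples, with no overlap (-0.42 ± 0.20, adjusted p = 0.584). KLF6, a widely expressed member induced by injury signals, gave 0.05 ± 0.15 and 0.42 ± 0.29 by its tested probe sets, and the groups overlapped in both. They also overlapped in 211610_at, below the filter at 20.9 to 35.1.

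IER2, a short-lived nuclear protein, read 1476 and 1622 in the MED1 samples against 1623 and 1759.6 in the empty vector samples. The arrays nearest each other differed by far less than either pair's own spread, and the log2 fold change was -0.13 ± 0.10. IER3, a stress-induced survival protein, read 27.4 and 43.1 against 22.7 and 37.2 (0.16 ± 0.30), and ZFP36, which destabilises AU-rich mRNAs, 148 and 176 against 174 and 123 (0.12 ± 0.19). Both overlapped.

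PHLDA1, a pleckstrin homology protein induced by ERK signalling, had 5 tested probe sets, all negative. They ranged from -0.11 ± 0.14 for 217996_at to -0.80 ± 0.19 for 217999_s_at, and 4 separated the groups. The values of 217999_s_at, chosen after they were seen, were 87.0 and 83.5 in the MED1 samples against 141 and 183 in the empty vector samples (adjusted p = 0.22). By 217996_at, the tested PHLDA1 probe set of highest mean, the arrays overlapped, at 672 and 564 against 751 and 594. The sign was thus shared by the PHLDA1 probe sets, the size was not, and none passed.

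The feedback phosphatases did not pass. DUSP1, a nuclear phosphatase of JNK, p38 and ERK, read 1041 and 992 in the MED1 samples against 877 and 933 in the empty vector samples. The groups separated with MED1 higher, by 0.16 ± 0.10, and the interval of -0.05 to 0.38 lay within 1.5-fold. A second DUSP1 probe set, 201044_x_at, lay below the filter at 1.3 and 11.2 in the MED1 samples against 1.71 and 1.59 in the empty vector samples. The DUSP1 promoter, printed above, holds the full cyclic AMP response element, as does that of JUND. Neither gene passed, and a link between the element and these values was not tested.

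DUSP4, a nuclear phosphatase that ERK induces, differed between its probe sets. By 204014_at it read 146 and 199 in the MED1 samples, against 292 and 243 in the empty vector samples, with no overlap (-0.60 ± 0.18, interval -0.99 to -0.20, limma unadjusted p = 0.00776). By 204015_s_at it read 174 and 209 in the MED1 samples, around the 185 and 184 of the empty vector samples (0.05 ± 0.15, adjusted p = 0.958). The first gave -0.80 without MED1 replicate 2 and -0.39 without MED1 replicate 1. Over the alternatives that kept all arrays, its adjusted p (limma) was 0.108, with the replicate block, to 0.581, with no filter.

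DUSP6, the cytoplasmic phosphatase most specific for ERK, had 3 probe sets, all below the filter. The probe set 208891_at read 41.3 and 15.7 in the MED1 samples, on either side of both empty vector arrays, and the groups overlapped in all 3. DUSP5, a nuclear ERK phosphatase, read 21.2 and 17.5 in the MED1 samples against 30.4 and 49.6 in the empty vector samples. It too lay below the filter, with no overlap between the groups.

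The Sprouty proteins restrain receptor tyrosine kinase signalling upstream of ERK. SPRY1 read 101.5 and 109.7 in the MED1 samples against 91.9 and 139 in the empty vector samples (-0.09 ± 0.21), with overlap. SPRY2 read 86.5 and 88.4 against 82.4 and 72.1 (0.15 ± 0.20), with both MED1 arrays higher. SPRY4 lay below the filter, at 36.2 and 33.9 in the MED1 samples against 24.2 and 26.6 in the empty vector samples, again with no overlap.

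CYR61, a secreted matricellular protein of the CCN family, read 293 and 339 in the MED1 samples against 345 and 341 in the empty vector samples by 201289_at (-0.12 ± 0.13). By 210764_s_at it read 97.2 and 105 against 119 and 185 (-0.49 ± 0.21, interval -0.97 to -0.01, adjusted p = 0.535). Both MED1 arrays were lower in each, and neither passed. CTGF, its relative, lay below the filter, at 1.89 and 1.45 against 1.92 and 11.5.

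In all, 22 of the 60 probe sets lay below the filter, with signals of 0.612 to 49.6, and for 10 of the 32 genes these were the only ones. The groups separated in 7 of them, 3 with MED1 higher (13.6%) and 4 with MED1 lower (18.2%), against 13.3% and 20.5% of all 8886 probe sets below the filter. These shares were near the background.

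**Figure D3:**
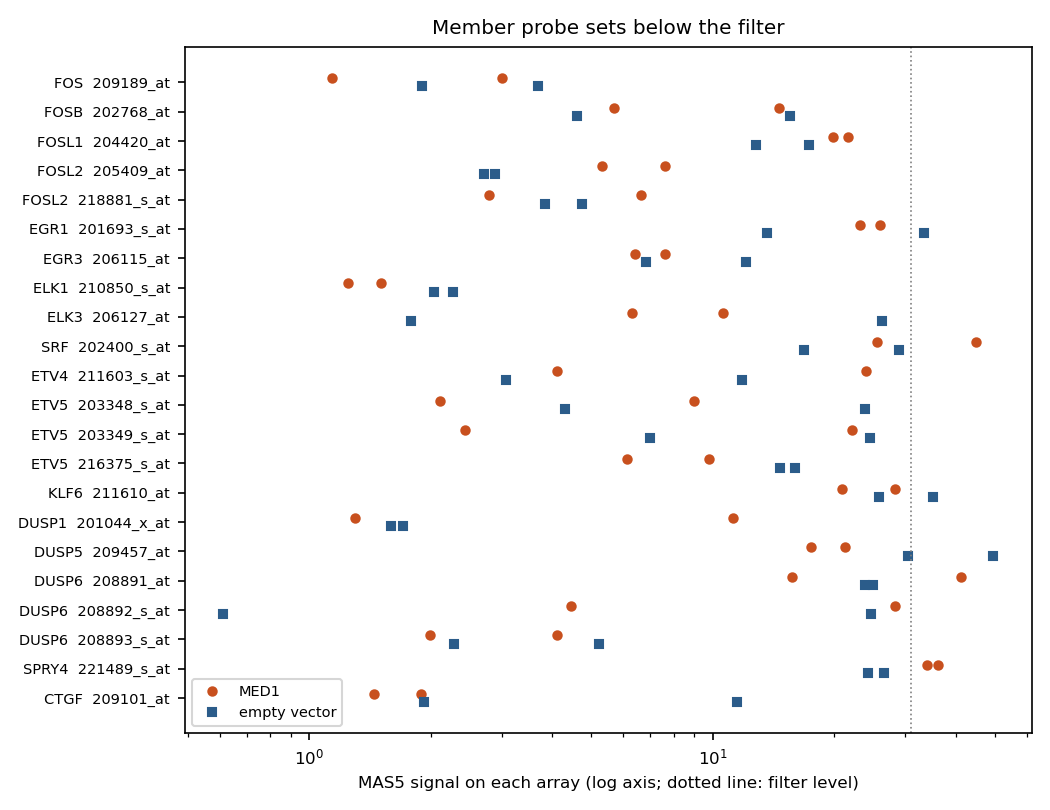
MAS5 signal on each array (x axis, log scale) for the 22 member probe sets below the filter, MED1 arrays as circles drawn above the squares of the empty vector arrays; the dotted line marks the filter level of 31, which applies to the mean over the arrays. For FOS, FOSB and DUSP6 the groups overlap, and for DUSP5 both MED1 arrays lie below both empty vector arrays.

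The wider pathway was read from 7 lists of 143 genes, of which 117 had a probe set and 93 a tested one. Of these 93 genes 0 passed in either direction, while 3 had MED1 higher (3.23%) and 8 MED1 lower (8.6%) with an unadjusted p under 0.05, against 4.1% and 5.69% of all 7957 tested genes. The median log2 fold change was -0.05. In the RAS, RAF, MEK and ERK list, 0 of 16 tested genes passed, 13 of the 16 values were negative and the median was -0.08. Over all 7957 tested genes 54.5% of values were negative, and over the 93 pathway genes 61.3%. Several of the negative values in this list were small, such as MAP2K1 at -0.01 ± 0.09 and SOS2 at -0.02 ± 0.15. No test was made of the signs. MAPK3, which encodes the ERK1 kinase, read 267 and 211 in the MED1 samples against 356 and 355 in the empty vector samples (-0.55 ± 0.14, adjusted p = 0.27). The ribosomal S6 kinases RPS6KA2 and RPS6KA3 gave -0.33 ± 0.11 and 0.42 ± 0.18, so members of this kinase family differed in sign.

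Among 23 other ERK-induced and serum-induced genes 0 passed, with a median of -0.08. NR4A1, an orphan nuclear receptor and immediate early gene, gave -0.54 ± 0.18, TRIB1, a pseudokinase, 0.27 ± 0.10 and RHOB, an inducible small GTPase, -0.23 ± 0.09. Among 12 other feedback inhibitors 0 passed, with a median of -0.09. DUSP8, a phosphatase of JNK and p38, read 156 and 146 in the MED1 samples against 228 and 295 in the empty vector samples (-0.72 ± 0.16, adjusted p = 0.205). LRIG1, which lowers ERBB receptors, gave -0.46 ± 0.12, and DUSP7, an ERK phosphatase, 0.45 ± 0.13. The DUSP genes thus had values of both signs in each list.

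The remaining 4 lists lie further from ERK. Of 9 AP-1 dimer partners and cyclic AMP response factors 0 passed (median 0.02), with BACH1 at 0.23 ± 0.13, MAFF at -0.20 ± 0.15 and MAF at 0.15 ± 0.12. Of 13 JNK and p38 pathway kinases 0 passed (median -0.07), with MAP2K6 at -0.37 ± 0.13, MAPK11 at -0.76 ± 0.35 and MAP2K4 at 0.24 ± 0.12. Of 13 cytoskeletal SRF targets and MRTF cofactors 0 passed (median 0.01), with TAGLN2 at -0.24 ± 0.10, the cofactor gene MKL2 at -0.24 ± 0.15 and the adhesion protein VCL at 0.13 ± 0.09. Of 7 YAP and TEAD genes 0 passed (median -0.07), with TEAD4 at -0.15 ± 0.15, YAP1 at -0.07 ± 0.13 and TEAD1 at -0.10 ± 0.20.

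**Figure D4:**
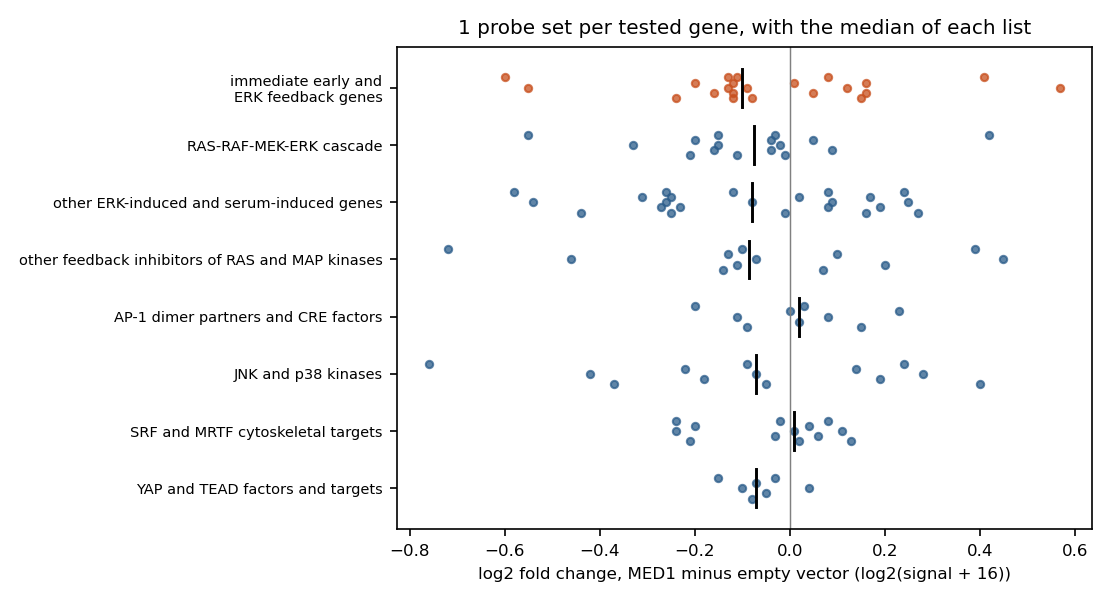
Log2 fold change, MED1 minus empty vector (x axis), of each tested gene by its probe set of highest mean, for the 22 tested immediate early and ERK feedback genes (top) and the 7 pathway lists; a black bar marks each median. The medians lie between -0.10 and 0.02, and the top row spans -0.60 for DUSP4 to 0.57 for ELK1.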

How the data were processed

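Per the submitters' processing notes, the deposited table holds linear signal intensities from MAS5, version not given. Trimmed by 2% at both ends, each array's mean was 500.2, and no further scaling was applied. Affymetrix controls (62) were left out of 22277 probe sets. The platform annotation named 1 gene for 19064 probe sets, several for 1043 and none here for 2108. Signals were taken as log2(signal + 16), and 13329 probe sets passed the filter. The comparison used limma 3.58.1 under R 4.3.3 (lmFit, eBayes with trend, 7.3 prior and 2 residual degrees of freedom). The p-values are two-sided and reflect only how these arrays vary, and that variation may be technical. Precision is limited by the 4 arrays.

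On simulated data of 13329 probe sets, 32.8% of 1.5-fold and 75.2% of 2-fold changes were recovered. Those data held 200 changed probe sets, at 1.5-, 2-, 3- and 4-fold, with independent noise drawn from the fitted model. The cutoff after adjustment depends on how many probe sets change, and the real comparison called 39. These shares are therefore not the power of the test for the members. The members and lists were chosen with earlier results of these data known. All members were named, with values for each array for ELK1, the 12 genes of lowest p by the tested probe set of highest mean, and genes whose probe sets had opposite signs; from each pathway list the 3 genes of lowest p were named. Other per-array values were added for completeness. Alternatives covered the pseudocount (1 and 64), centring, quantile normalization, no filter or one at the 60th percentile, eBayes without trend or robust, the replicate block, each array left out, and looser thresholds. Plots used matplotlib 3.10.9. For both empty vector arrays 1 free-text label speaks of the MED1 vector; it was set aside, because their title, source name and transfection label say empty vector.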

Additional observations from a re-analysis of the deposited data

How the results depend on the processing

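The count of member probe sets that passed was 0 with all arrays under both other pseudocounts, centring, quantile normalization, both other filters, eBayes without trend or robust, and an adjusted p of 0.1. Of these settings, 2 called little or nothing anywhere, 0 of 22215 probe sets with no filter and 5 of 13329 without trend, so a member count of 0 there says nothing about stability. It was 6 at an unadjusted p of 0.05, a looser rule by construction, and 0 to 3 with an array left out, where the single array left in a group takes its spread from the other group. The 3 were ELK1, ATF3 and DUSP4, without MED1 replicate 2, where 1.62% of all tested probe sets passed, against 0.293% with all arrays. With the replicate block, where 1.79% of all tested probe sets passed, it was 2, ELK1 203617_x_at (adjusted p = 0.0108) and ATF3 (adjusted p = 0.0211); same-numbered deviations correlated at 0.12 over 2 pairs, too few to show that the numbers pair the samples. The same counts held for the named probe sets, 0 with all arrays, 2 with the block and 0 to 3 with an array left out. Pathway probe sets that passed numbered 0 of 148, and 2 with the block (DUSP8 and LRIG1). At an unadjusted p of 0.05, which 9.2% of all tested probe sets met, they numbered 16. The median log2 fold change of the genes, -0.10, was -0.05 with centring, which moved the overall median to 0.04, -0.04 with the probe sets of a gene averaged, and -0.10 to -0.05 with an array left out. Non-overlapping member probe sets numbered 23 of 38. With quantile normalization they were 19 of 38, 6 with MED1 higher and 13 lower (34.2%), against 19.4% and 20.6% of all tested probe sets. With centring they were 17 of 38, 6 higher and 11 lower (28.9%), against 24.8% and 15.7%. With the filter at the 60th percentile, where fewer were tested, they were 11 of 18. Of those, 2 had MED1 higher and 9 lower, against 18.5% and 22.6% of all probe sets there. The ELK1 probe set difference stayed between 0.71 and 1.24. Direction turned, with no call, when an array was left out, for ELK4 206919_at (-0.35 to 0.21, positive without MED1 replicate 1), ELK4 214831_at (-0.28 to 0.04, positive without EV replicate 1), KLF4 221841_s_at (-0.26 to 0.03, positive without EV replicate 1), JUN 201465_s_at (-0.04 to 0.49, negative without MED1 replicate 2) and DUSP4 204015_s_at (-0.08 to 0.17, negative without MED1 replicate 2), where EV is the empty vector. Beyond looser rules and fewer probe sets, the cause was not tested. Without detection calls, values near or below a signal of 31 have no known background.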
